A study of Pistacia vera with 121 samples.

Results

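Among the genes of developing pistachio fruit, 14 reached their highest level late in the season in the kernel, the shell and the hull alike, and those 14 genes are described here. They were chosen by their levels from 38315 identifiers in the table, of which 37063 start with PvKer and 28015 of those had a count in at least 1 library. Levels were CPM, read counts scaled to the library total over the PvKer identifiers, averaged per organ and sampling point. A gene was taken when its highest group mean fell at 2284 or 2377 growing degree days in kernel, at 2007 or 2139 in shell and at 2284 to 2564 in hull. Each of those maxima also had to be at least 10 CPM and at least 2 times the first group mean of the organ, and the 3 maxima had to lie within 3-fold of each other.

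All fruit came from the cultivar Kerman, with no treatment named in the labels, and each group was 1 organ at 1 sampling point in growing degree days (°C), the heat accumulated over the season. Kernel (the seed) was sampled at 12 points from 1223 to 2564, shell (the endocarp) at 11 points from 865 to 2139 and hull (the outer fruit wall) at 15 points from 865 to 2564. The choice of genes used 107 libraries of total RNA, 29 of kernel, 34 of shell and 44 of hull, in groups of 2 to 4. Another 14 were named as left out, after an earlier look at the same data, and hold all libraries labelled kernel 2475 or 2564. The labels do not say whether libraries of a group came from separate trees or fruits, so p-values below measure the spread between libraries, which may be technical.

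Pistachio organs mature on different schedules. The shell grows and then hardens by lignification early, the kernel fills the shell cavity later and stores oil and protein, and the hull softens, changes colour and separates from the shell at ripeness. Genes that rise late in seed and fruit wall together are shared by organs with different fates. The identifiers of the table matched 0 entries of the RefSeq gene table at hand, so the 14 genes have no names, functions or sequences here, and tissue markers could not be checked.

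The libraries that chose the genes held 850623 to 18115772 counts on PvKer identifiers, and the shallowest were of kernel. The 3 libraries labelled kernel 2475 held 304704 to 530385, which was 12.9% to 30.6% of their counts, against a median of 99.0% in the libraries used for the choice. Replicate 1 of kernel 1881 stood apart from its group. The summed level of the 14 genes was 1111 CPM there, against 2134 to 2373 CPM in the other 3 libraries. Each of the 14 genes had its lowest value of the group in it. The share of all genes that were lowest in it was not computed. Counts, medians and called changes in comparisons that use kernel 1881 are therefore also given without that library.

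In each organ the summed level of the 14 genes peaked early, dipped and climbed late. In kernel it averaged 631 ± 39 CPM at 1223, 1569 ± 198 at 1508, 1296 ± 32.6 at 1759, 2194 ± 275 at 2007 and 3146 ± 37.1 at 2377 (SD, n = 2 or 3). In shell it averaged 966 ± 201 CPM at 865, 1506 ± 35.4 at 1223, 1164 ± 42.7 at 1357 and 2564 ± 188 at 2139 (SD, n = 3, and 4 at 2139). In hull the sum was 962 ± 87.8 CPM at 865, 1669 ± 147 at 1223, 1358 ± 37.2 at 1357, 2727 ± 246 at 2139, 2299 ± 300.3 at 2284, 3368 ± 525 at 2377 and 2577 ± 204 at 2564 (SD, n = 3, and 2 at 1223). The hull sum also dipped at 1759, to 1593 CPM from 1783 CPM at 1657. In shell the sum was 1763 ± 260 CPM at 1759, against 1852 ± 107 CPM at 1657 (SD, n = 3). The most abundant gene, PvKer.07.g175370, held 694 CPM of the hull sum of 1591 CPM at 1508. The late climb was set by the choice of genes and is a description with no test.

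**Figure D1:**
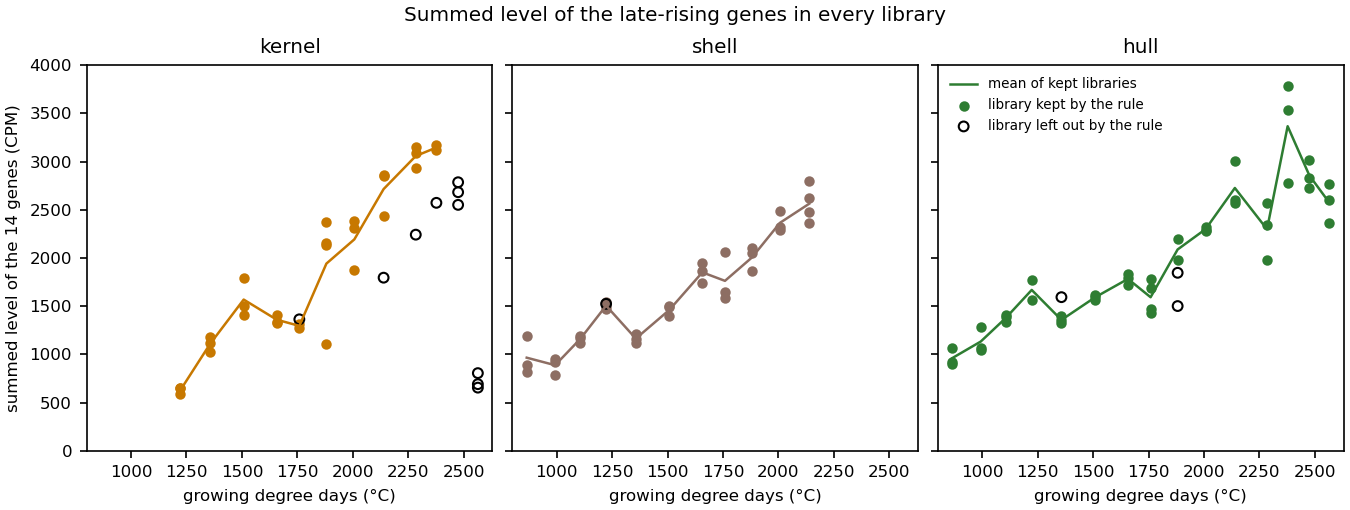
Summed level of the 14 genes (CPM) against growing degree days (°C) in kernel, shell and hull. Filled points are libraries used to choose the genes, lines join their group means and open circles are libraries left out. The 3 libraries labelled kernel 2564 sit at 655 to 806 CPM, and those labelled kernel 2475 at 2552 to 2786 CPM.

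Steps between neighbouring points differed in how many of the 14 genes shared them. The sum at 1357 was 1.76 times that at 1223 in kernel, 0.773 times in shell and 0.814 times in hull. At 1357, 10 of 14 genes were higher in kernel, 3 in shell and 7 in hull. Of all genes with a maximum of at least 10 CPM in the organ, 30.5% were higher in kernel, 45.5% in shell and 51.3% in hull. Since 1223 is the first kernel point, which the choice held well below the maximum, the kernel step is partly set by the choice. From 1759 to 1881 the group mean was higher at the later point for 13 of 14 genes in kernel, 11 in shell and 14 in hull. Over all genes with a maximum of at least 10 CPM in the organ, 65.5% were higher at 1881 than at 1759 in kernel, 55.9% in shell and 61.6% in hull. In kernel these were 14 of 14 genes and 66.9% of all genes without replicate 1 of kernel 1881. In hull, 4 of 14 were higher at 2284 than at 2139 and all 14 were higher at 2377 than at 2284, against 46.1% and 48.3% of all genes, and both 2284 and 2377 lie in the hull window used to choose the genes. These shares are descriptions of group means.

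Within each organ the median pair of genes had similar courses, and some pairs were weakly related. Correlations were taken across group means on the log2(CPM + 1) scale, over the 91 pairs of genes. Their median was 0.782 in kernel (10 points), 0.733 in shell (11 points) and 0.771 in hull (15 points). No pair was below 0, and the lowest was 0.324 in kernel, 0.0816 in shell and 0.277 in hull. The kernel median was 0.791 without replicate 1 of kernel 1881. The genes share libraries and were chosen for a late maximum in each organ, so these values describe the set. The genes were not neighbours: their identifiers carried 10 of the 15 numbers that follow the prefix, with 3 genes each under 7 and 10, and the closest 2 stood 198 rows apart in the table.

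Most hull maxima fell at the same sampling point. In kernel the maximum fell at 2284 for 7 genes and at 2377 for 7. In shell it fell at 2007 for 5 and at 2139, the last shell point, for 9. In hull it fell at 2377 for 12 genes, at 2475 for PvKer.08.g192380 and at 2564 for PvKer.10.g258770. By 2139, the last point shared by the 3 organs, the median gene stood at 79.6% of its maximum in kernel (range 54.7% to 97.6%) and at 84.3% in hull (42% to 99.8%).

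**Figure D2:**
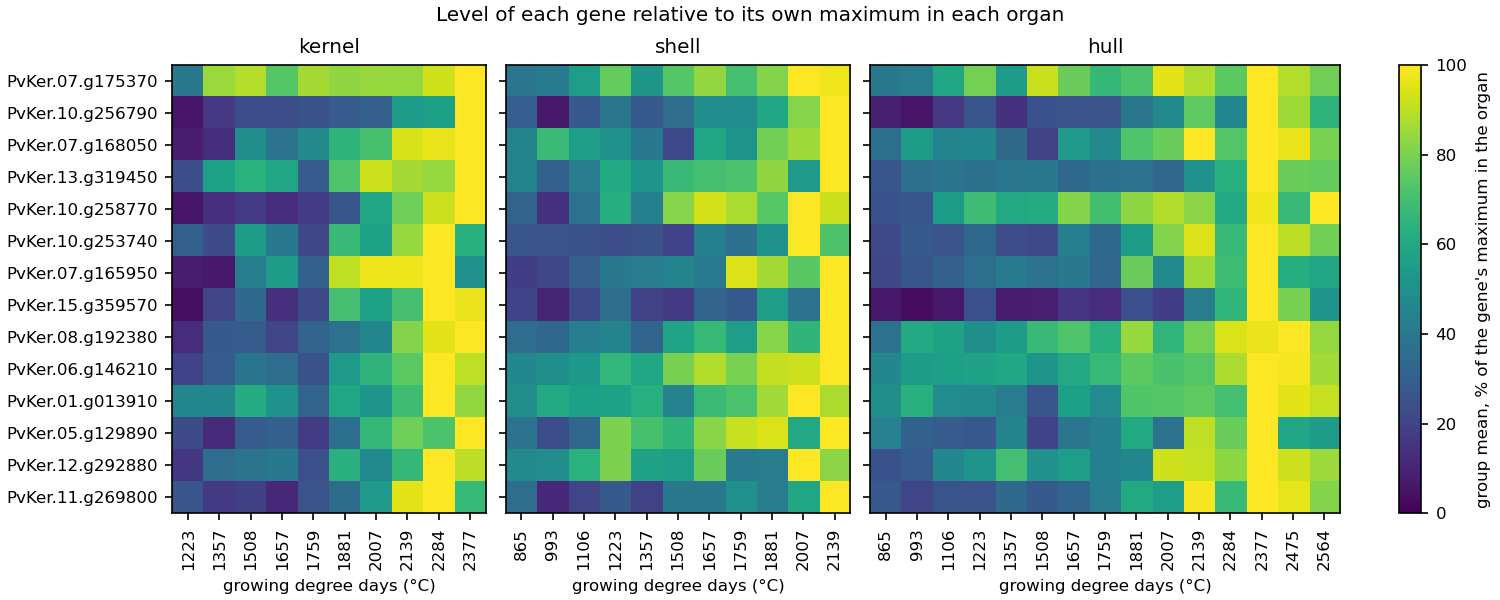
Group mean of each of the 14 genes as a percentage of its own maximum in the organ (colour), by growing degree days (°C), for kernel, shell and hull, with genes in the order of their hull maximum. Most genes are at 100% at 2377 in hull, while PvKer.15.g359570 is at 42% there at 2139.

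The rise over the season was largest in kernel for 12 of 14 genes. The ratio of the maximum to the first point had a median of 5.54 in kernel (range 2.18 to 24.6), 2.70 in shell (2.02 to 5.51) and 3.66 in hull (2.01 to 14.3). The first points differ in developmental time, since kernel sampling began at 1223. The maximum itself was highest in kernel for 7 genes, in hull for 6 and in shell for PvKer.12.g292880.

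PvKer.07.g175370 was the most abundant of the 14 genes, with ratios of maximum to first point that were close to each other. In kernel it had 642 ± 37.4 CPM at 2377 (n = 2), against 259.9 ± 20.5 CPM at 1223. In shell it had 621 ± 30.8 CPM at 2007, against 244 ± 27.5 CPM at 865. In hull it had 755 ± 53.1 CPM at 2377, against 304 ± 32.7 CPM at 865 (SD, n = 3). Its ratios were 2.47 in kernel, 2.54 in shell and 2.48 in hull. Most of the kernel rise of PvKer.07.g175370 lay between the first 2 points, since its mean was already 545 CPM at 1357 and still 541 CPM at 2139.

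PvKer.10.g256790 had the second highest hull maximum after a low start. Its kernel values were 667 and 594 CPM at 2377, against 50.2, 24.5 and 38.6 CPM at 1223. In shell it had 269, 226, 289.5 and 283 CPM at 2139, against 186, 20.7 and 31.3 CPM at 865, so that 1 of the 3 first-point shell libraries was far above the others. Its hull values were 553, 312 and 669.7 CPM at 2377, against 32.9, 53.7 and 48.2 CPM at 865. The late libraries of PvKer.10.g256790 lay above every first-point library in each organ, and the 3 hull libraries at 2377 spanned more than 2-fold. The gene was chosen for late maxima above its first means, so this separation is a description only.

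PvKer.15.g359570 had the largest kernel and hull ratios of the set, 24.6 and 14.3. In kernel it had 91.1, 66.1 and 50.9 CPM at 2284, against 3.10, 2.10 and 3.26 CPM at 1223. In shell it had 92.1, 54.5, 53.9 and 62.1 CPM at 2139, against 23.8, 8.55 and 6.85 CPM at 865. Its hull values were 138, 101.2 and 177 CPM at 2377, against 10.8, 10.7 and 7.64 CPM at 865. In hull PvKer.15.g359570 was at 42% of its maximum at 2139, the lowest share of the 14 genes, so that its rise there was the latest.

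PvKer.07.g168050, PvKer.13.g319450 and PvKer.05.g129890 had higher maxima in hull than in kernel and shell. PvKer.07.g168050 peaked at 229 ± 45.2 CPM in kernel (n = 2), 325 ± 84.5 in shell (n = 4) and 384 ± 69.1 in hull (n = 3), and had a first-point mean of 18.5 CPM in kernel, against 147 in shell and 139.9 in hull. PvKer.13.g319450 peaked at 129.9 ± 23.2 CPM in kernel, 196 ± 62.1 in shell and 319.8 ± 79.0 in hull. The maxima of PvKer.05.g129890 were 42.1 ± 0.295 CPM in kernel, 44.7 ± 3.46 in shell and 61.8 ± 15.2 in hull. The hull and shell maxima of PvKer.07.g168050 differed by less than the spread between libraries.

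PvKer.10.g258770, PvKer.10.g253740, PvKer.07.g165950, PvKer.08.g192380, PvKer.06.g146210 and PvKer.11.g269800 had their highest maximum in kernel, as PvKer.10.g256790 did. PvKer.10.g258770 peaked at 550.1 ± 44.8 CPM in kernel, 399 ± 109.5 in shell and 308 ± 75.0 in hull, with kernel 16.9 times its first mean of 32.5 CPM. PvKer.10.g253740 peaked at 334 ± 107 CPM in kernel, 273 ± 31.2 in shell and 259 ± 32.3 in hull. The maxima of PvKer.07.g165950 were 317 ± 63.2 CPM in kernel, 177 ± 19.9 in shell and 246 ± 5.06 in hull. For PvKer.10.g253740 the maxima of the 3 organs lay within the spread between libraries.

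The remaining genes were less abundant. PvKer.08.g192380 peaked at 191 ± 28.6 CPM in kernel, 103 ± 25.8 in shell and 131 ± 13.8 in hull, and PvKer.06.g146210 at 188 ± 33.4, 97.7 ± 15.0 and 126 ± 15.9 CPM in the same order. PvKer.01.g013910 peaked at 79.5 ± 16.3 CPM in kernel, 62.5 ± 4.52 in shell and 81.0 ± 9.71 in hull. PvKer.12.g292880 peaked at 48.6 ± 3.32 CPM in kernel, 59.7 ± 4.76 in shell and 46 ± 4.24 in hull. PvKer.11.g269800, the least abundant, peaked at 17.8 ± 3.19 CPM in kernel, 11.8 ± 2.81 in shell and 10.8 ± 1.22 in hull.

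Some genes lay close to the limits of the choice. The smallest maximum inside was 10.8 CPM (PvKer.11.g269800), and the nearest gene outside, which met every other condition, had 9.39 CPM (PvKer.11.g276870). The smallest rise inside was 2.01 times (PvKer.01.g013910), and the nearest outside was 1.85 times (PvKer.10.g249690). The widest spread of maxima inside was 2.46-fold (PvKer.13.g319450), and the nearest outside was 3.00-fold (PvKer.06.g145770). Failing 1 of these limits alone kept out 15, 66 and 10 genes.

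**Figure D3:**
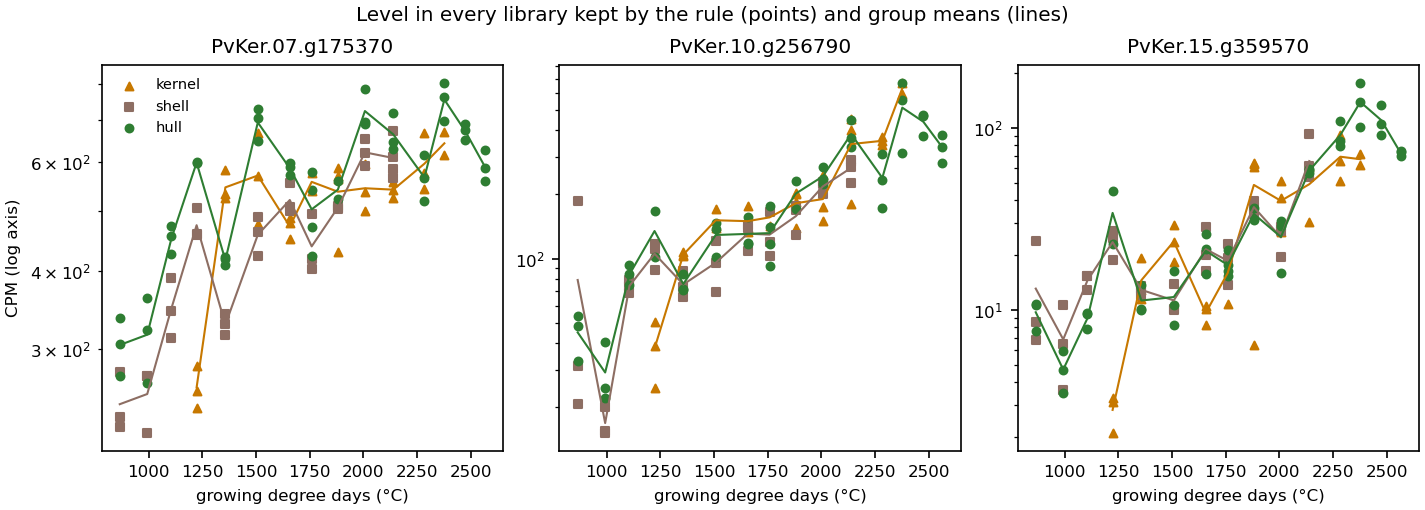
Levels of PvKer.07.g175370, PvKer.10.g256790 and PvKer.15.g359570 (CPM, log axis) against growing degree days (°C) in every library used to choose the genes (points), with group means (lines) for kernel, shell and hull. PvKer.07.g175370 is the most abundant of the 3 genes, and kernel replicate 1 at 1881 lies below the other 3 kernel libraries of that point in PvKer.15.g359570, at 6.43 CPM.

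The tests that follow use sampling points that are neither a first point nor in a window of the organ, or libraries that the choice left out. The choice keeps the points it used at or below the maximum, and its 3-fold limit on the maxima also narrows differences between organs. Points between a low start and a high end tend to climb. Counts of the 14 genes are therefore set beside the share of all 20662 genes tested. That share is not matched for level, since only 9983 genes had a maximum of at least 10 CPM in all 3 organs. A gene was called with edgeR's quasi-likelihood F-test at a Benjamini-Hochberg adjusted p below 0.05 over all genes tested and a log2 fold change of 1 or more in size. Standard errors (SE) are on the log2 scale. A lower level in a whole organ can come from fewer cells of a type or from less RNA per cell, which cannot be told apart in these libraries.

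The mid-season comparison set 1759 and 1881 against 1357 and 1508 within each organ. Of the 14 genes, 2 rose in kernel (PvKer.07.g165950 and PvKer.07.g168050), 3 in shell (those 2 and PvKer.15.g359570) and 1 in hull (PvKer.07.g168050), and none was called lower. Of all genes tested, 9.20% were called higher in kernel, 5.06% in shell and 5.29% in hull, and 9.61%, 9.39% and 8.78% lower. The median log2 fold change of the 14 genes was 0.55 in kernel, 0.65 in shell and 0.43 in hull, beside 0.00, -0.01 and 0.00 over all genes tested. At an unadjusted p below 0.05, 0 of the 14 were lower in kernel, 1 in shell and 1 in hull, beside 4604, 4340 and 4036 of the 20662 genes tested, and DESeq2 called 0 lower in each organ. On the adjusted p alone, with no minimum fold change, 9 of 14 were higher in kernel, 12 in shell and 7 in hull, against 18.6%, 15.2% and 16% of all genes tested. With replicate 1 of kernel 1881 left out, 2 of the 14 were called higher in kernel and none lower, their median was 0.61 beside 0.00 over all genes, and 10 of 14 were higher on the adjusted p alone, against 17% of all genes.

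PvKer.07.g168050 was called in all 3 organs. In kernel it had 97.1 and 119 CPM at 1759 and 99.9, 145, 147 and 205 CPM at 1881, against 26.5, 33.8 and 29.5 CPM at 1357 and 133, 103 and 104 CPM at 1508. The kernel log2 fold change was 1.36 ± 0.14 (SE, edgeR adjusted p = 2.06e-12), and the 1508 libraries overlapped the later ones, so the step lay mainly between 1357 and 1508. In shell it had 157, 176 and 171 CPM at 1759 and 207, 296 and 264 CPM at 1881, against 144, 113 and 137 CPM at 1357 and 70.5, 71.2 and 71.6 CPM at 1508. The shell libraries did not overlap, with a log2 fold change of 1.14 ± 0.14 (SE, edgeR adjusted p = 3.88e-10). In hull the later libraries of PvKer.07.g168050 lay between 171 and 302 CPM, against 66.0 to 151 CPM in the earlier ones, with a log2 fold change of 1.09 ± 0.14 (SE, edgeR adjusted p = 3.47e-09). The hull change fell below the minimum fold change with DESeq2 (0.99), with every library under its label (0.87) and without replicate 3 (0.98). Its call was also lost with relative log expression size factors, another scaling of the libraries.

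PvKer.07.g165950 was called in kernel and shell. In kernel it had 109.9 and 87.9 CPM at 1759 and 114, 352, 301 and 379.7 CPM at 1881, against 21, 21 and 19 CPM at 1357 and 146, 142 and 119 CPM at 1508. The kernel log2 fold change was 1.89 ± 0.19 (SE, edgeR adjusted p = 2.82e-13), and the value of 114 CPM belonged to the library that stood apart. In shell PvKer.07.g165950 had 246, 105 and 153 CPM at 1759 and 170.3, 141 and 148 CPM at 1881, against 65.1 to 83.9 CPM in the 6 earlier libraries, without overlap. The shell log2 fold change was 1.10 ± 0.18 (SE, edgeR adjusted p = 1.27e-06), and it fell below the minimum fold change without replicate 1, at 0.88. Without replicate 1 of kernel 1881 the kernel values were 1.99 for PvKer.07.g165950 and 1.39 for PvKer.07.g168050, both still called.

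PvKer.15.g359570 was called in shell, with 22.9, 13.7 and 19.2 CPM at 1759 and 33.7, 36.5 and 39.8 CPM at 1881, against 9.94 to 13.8 CPM in the 6 earlier libraries. The log2 fold change was 1.15 ± 0.26 (SE, edgeR adjusted p = 0.000283). The shell libraries at 1881 were all above the earlier ones and 1 library at 1759 overlapped them.

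Whether the mid-season change of a gene differed between organs was tested directly, on the adjusted p alone. Compared with hull, the change was larger in kernel for PvKer.07.g165950, PvKer.12.g292880 and PvKer.07.g175370 and smaller for PvKer.01.g013910. Of all genes tested, 15.7% were called higher and 16.2% lower in kernel minus hull. For PvKer.07.g165950 the log2 fold change was 1.89 in kernel and 0.26 in hull, a difference of 1.63 ± 0.27 (SE, edgeR adjusted p = 7.34e-07). The difference for PvKer.12.g292880 was 0.82 ± 0.24 (SE, edgeR adjusted p = 0.00592), from 0.30 in kernel and -0.52 in hull. PvKer.01.g013910 had -0.08 in kernel and 0.75 in hull, a difference of -0.83 ± 0.22 (SE, edgeR adjusted p = 0.00148). The difference for PvKer.07.g175370 was 0.34 ± 0.13 (SE, edgeR adjusted p = 0.0385) and was 0.02, with no call, under library totals alone. That call was also lost with no filter on low counts, with every library under its label and without replicate 2, 3 or 4. The call of PvKer.12.g292880 was lost without replicate 2 (0.64), without replicate 4 (0.61) and under library totals alone (0.51), and that of PvKer.01.g013910 without replicate 3 (-0.70). Without replicate 1 of kernel 1881 the differences were 1.72 for PvKer.07.g165950, 0.91 for PvKer.12.g292880, -0.78 for PvKer.01.g013910 and 0.33 for PvKer.07.g175370, all still called.

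Compared with hull, the mid-season change was larger in shell for PvKer.07.g165950 and PvKer.07.g175370, and no gene of the 14 was called smaller. Of all genes tested, 1.97% were called higher and 2.31% lower in shell minus hull. The difference was 0.84 ± 0.26 for PvKer.07.g165950 (SE, edgeR adjusted p = 0.0448) and 0.46 ± 0.13 for PvKer.07.g175370 (SE, edgeR adjusted p = 0.0254). At an unadjusted p below 0.05, 4 of the 14 were larger and 0 smaller, beside 1532 larger and 1803 smaller of the 20662 genes tested, and DESeq2 called 0 smaller. Both calls were lost when any of replicates 1 to 3 was left out, when every library was fitted under its label, when low counts were kept and under library totals alone. The call of PvKer.07.g165950 was also lost without replicate 4.

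The second comparison set 2007 and 2139 against 1759 and 1881, in the 2 organs whose windows open later. Of the 14 genes, 2 rose in kernel (PvKer.10.g258770 and PvKer.05.g129890), where 4.26% of all genes tested were called higher and 6.70% lower. In hull 2 rose (PvKer.12.g292880 and PvKer.10.g253740), where 3.78% were called higher and 6.91% lower. None of the 14 was called lower in either organ with edgeR. DESeq2 also called none lower, and at an unadjusted p below 0.05 there was 1 lower in kernel and 0 in hull, beside 4011 and 4094 of the 20662 genes tested. The 1 lower in kernel was PvKer.07.g175370, with a log2 fold change of -0.39 ± 0.09 (SE, edgeR adjusted p = 0.000895). Before TMM scaling its kernel CPM averaged 542 at the later points and 543 at the earlier ones. The median log2 fold change of the 14 was 0.49 in kernel and 0.39 in hull, beside -0.04 and 0.00 over all genes tested. On the adjusted p alone, 8 of 14 were higher in kernel and 6 in hull, against 12.1% and 13.7% of all genes tested. With replicate 1 of kernel 1881 left out, 2 of the 14 were called higher in kernel and none lower, their median was 0.42 beside -0.01 over all genes, and 7 of 14 were higher on the adjusted p alone, against 10.3% of all genes.

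PvKer.10.g258770 had 345, 428 and 196 CPM at 2007 and 474, 274 and 538 CPM at 2139 in kernel, against 114 and 75.0 CPM at 1759 and 54.5, 166, 167 and 204 CPM at 1881. The log2 fold change was 1.32 ± 0.19 (SE, edgeR adjusted p = 1.79e-07), with 1 later library inside the earlier range. PvKer.05.g129890 had 26.6 to 36.4 CPM in the 6 later kernel libraries, against 5.24 to 18.8 CPM in the 6 earlier ones, and its log2 fold change was 1.16 ± 0.20 (SE, edgeR adjusted p = 4.32e-06). Without replicate 1 of kernel 1881 these were 1.22 for PvKer.10.g258770 and 1.06 for PvKer.05.g129890, both still called. With every library under its label PvKer.05.g129890 had 0.82 and lost its call.

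In hull, PvKer.12.g292880 had 39.4, 46.8 and 41.6 CPM at 2007 and 45.4, 38.6 and 41.8 CPM at 2139, against 11.2 to 29 CPM in the 6 earlier libraries. The log2 fold change was 1.07 ± 0.17 (SE, edgeR adjusted p = 2.09e-06). PvKer.10.g253740 had 191 to 271 CPM in the later hull libraries, against 61.6 to 160.1 CPM in the earlier ones, with a log2 fold change of 1.06 ± 0.16 (SE, edgeR adjusted p = 4.75e-07). The groups of both genes did not overlap in CPM, and neither did those of PvKer.07.g175370, which was not called. Both called genes fell below the minimum fold change without replicate 4, at 0.87 for PvKer.12.g292880 and 0.92 for PvKer.10.g253740. The same held with no filter on low counts, at 0.99 and 0.98. PvKer.10.g253740 also fell below it without replicate 1, at 0.93.

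Early in the season, 1357 and 1508 were set against 993 and 1106 in the 2 organs sampled then. In shell, 3 of 14 genes were called higher (PvKer.10.g258770, PvKer.05.g129890 and PvKer.10.g256790) and PvKer.07.g168050 lower, where 11.2% of all genes tested were called higher and 9.76% lower. In hull none of the 14 was called in either direction with edgeR or DESeq2, where 7.80% were called higher and 8.15% lower. At an unadjusted p below 0.05, 6 of the 14 were higher and 2 lower in hull, beside 4207 higher and 4482 lower of the 20662 genes tested. On the adjusted p alone, 8 of 14 were higher and 1 lower in shell, and 5 higher and 2 lower in hull, against 20.2% and 22.9% of all genes tested in shell and 15.9% and 17.1% in hull. The median log2 fold change of the 14 was 0.26 in shell and 0.21 in hull, beside -0.03 and 0.00 over all genes tested.

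PvKer.07.g168050 fell early in shell and climbed again by mid-season. It had 144, 113 and 137 CPM at 1357 and 70.5, 71.2 and 71.6 CPM at 1508, against 215, 205 and 244 CPM at 993 and 160.2, 172 and 214 CPM at 1106. The log2 fold change was -1.21 ± 0.14 (SE, edgeR adjusted p = 4.83e-11), with no overlap. In hull its early change was -0.99 on the log2 scale, just under the minimum fold change, and the hull mean at 1508 was 74.3 CPM, against 71.1 CPM in shell.

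PvKer.10.g258770 rose early in shell, with 192, 168 and 155 CPM at 1357 and 296, 304 and 378 CPM at 1508, against 72.8, 47.1 and 55.1 CPM at 993 and 167, 159 and 122 CPM at 1106. Its log2 fold change was 1.2 ± 0.18 (SE, edgeR adjusted p = 1.24e-07). PvKer.05.g129890 had 27.3 to 34.9 CPM in the later shell libraries, against 8.50 to 17.1 CPM in the earlier ones, with a log2 fold change of 1.13 ± 0.18 (SE, edgeR adjusted p = 3.69e-07). PvKer.10.g256790 had 66.2 to 121.2 CPM, against 15.1 to 79.5 CPM, with a log2 fold change of 1.12 ± 0.23 (SE, edgeR adjusted p = 5.34e-05). For PvKer.10.g256790 the later shell libraries overlapped those at 1106 and lay above those at 993.

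**Figure D4:**
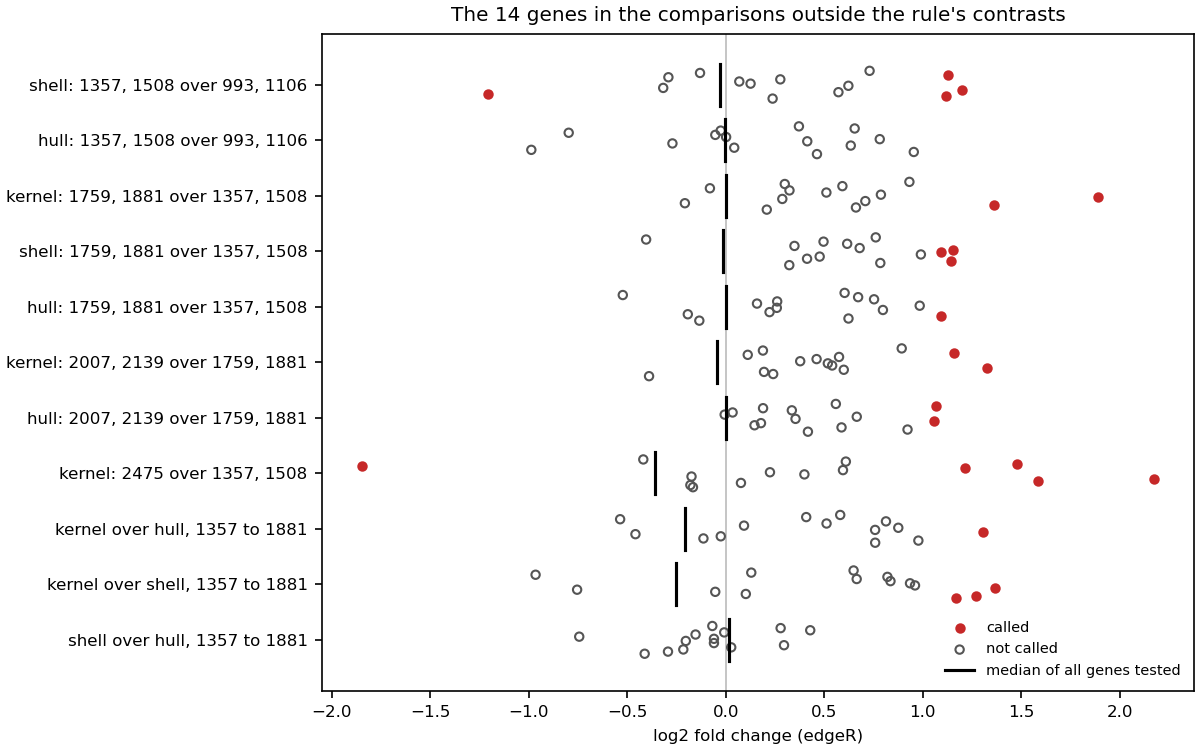
Log2 fold change (edgeR) of each of the 14 genes in 11 comparisons, with later points over earlier ones or 1 organ over another, in growing degree days (°C). Filled points were called, open points were not, and the black bars give the median of all genes tested. Most points lie right of the black bar in the within-organ comparisons, and few lie beyond a log2 fold change of 1.

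The 3 libraries labelled kernel 2475, which took no part in the choice, were set against kernel at 1357 and 1508. Of the 14 genes, 4 were called higher (PvKer.10.g258770, PvKer.13.g319450, PvKer.05.g129890 and PvKer.06.g146210) and PvKer.01.g013910 lower, where 11.4% of all genes tested were called higher and 15.3% lower. The median log2 fold change of the 14 was 0.31, beside -0.36 over all genes tested. This comparison depended on scaling: under library totals alone the median of all genes was 0.02 and that of the 14 genes 0.91, with 13 of 14 above 0, against 9 of 14 with TMM scaling. The summed level was 2674 ± 118 CPM at 2475 (SD, n = 3), against 1030.0 to 1791 CPM in the 6 earlier libraries.

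PvKer.10.g258770 had 532, 538 and 634 CPM in the libraries labelled kernel 2475, against 59.5, 83.5 and 78.0 CPM at 1357 and 111, 88.2 and 85.2 CPM at 1508. The log2 fold change was 2.18 ± 0.22 (SE, edgeR adjusted p = 1.32e-13). PvKer.13.g319450 had 356, 400.4 and 307 CPM, against 56.8 to 100.6 CPM, with a log2 fold change of 1.58 ± 0.21 (SE, edgeR adjusted p = 3.80e-09). PvKer.06.g146210 had 256, 223 and 183 CPM, against 51.8 to 88.5 CPM, with a log2 fold change of 1.22 ± 0.15 (SE, edgeR adjusted p = 1.02e-10). PvKer.05.g129890 had 36, 23 and 39.6 CPM, against 3.66 to 16.6 CPM, with a log2 fold change of 1.48 ± 0.31 (SE, edgeR adjusted p = 5.68e-05). The groups of these 4 genes did not overlap in CPM. Neither did those of PvKer.07.g175370 and PvKer.08.g192380, which were not called, with log2 fold changes of -0.17 and 0.60. The share of all genes without overlap was not computed.

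PvKer.13.g319450 averaged 354 ± 46.5 CPM at kernel 2475 (SD, n = 3), above every other group mean of the gene in the 3 organs. The same held for PvKer.10.g258770 (568 CPM) and PvKer.06.g146210 (221 CPM). Their next highest means were 319.8 CPM (hull 2377), 550.1 CPM (kernel 2377) and 188 CPM (kernel 2284), with overlapping libraries. PvKer.07.g175370 averaged 749 CPM at kernel 2475, above its kernel maximum of 642 CPM and below its hull maximum of 755 CPM. The remaining genes of the set lay below their kernel maxima at 2475. PvKer.01.g013910 had 36, 6.56 and 7.54 CPM at 2475, against 29.5, 47.5 and 34.7 CPM at 1357 and 55.9, 45.8 and 46 CPM at 1508, with a log2 fold change of -1.85 ± 0.28 (SE, edgeR adjusted p = 7.27e-08). The low values of PvKer.01.g013910 were 2 and 4 counts and the high one was 18 counts, so that its fall rests on 2 libraries with few counts.

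The 3 libraries labelled kernel 2564 had a summed level of 718 ± 78.6 CPM, against 631 ± 39 CPM at kernel 1223 and 3146 ± 37.1 CPM at kernel 2377. Their levels were near those of the first kernel point in the most abundant genes as well: PvKer.07.g175370 averaged 283 CPM at 2564 and 259.9 CPM at 1223, and PvKer.10.g258770 averaged 30.1 and 32.5 CPM. These libraries were not tested, since in an earlier look their profiles went against the label.

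Levels were compared between organs at 1357 to 1881, the points shared by all 3 organs outside the windows and after the first kernel point. The genes were chosen with maxima within 3-fold across organs, so a low count of calls between organs is partly set by the choice. With TMM scaling, PvKer.10.g253740 was called higher in kernel than in hull, and it, PvKer.10.g256790 and PvKer.07.g175370 were called higher in kernel than in shell. For kernel over hull, 23.4% of all genes tested were called higher and 30.8% lower, and for kernel over shell 23.7% were called higher and 32.1% lower. On the adjusted p alone, 9 of 14 were higher and 2 lower in each of these 2 comparisons, against 34.8% of all genes tested higher and 43.1% lower for kernel over hull and 34.8% higher and 44.1% lower for kernel over shell. These calls rest on the scaling, since the mean TMM factor of the groups was 0.583 to 0.986 in kernel, 1.03 to 1.22 in shell and 0.961 to 1.26 in hull. The median log2 difference of all genes was -0.21 for kernel over hull with TMM and -0.95 with library totals alone, and -0.25 and -1.13 for kernel over shell. Under library totals 0 of the 14 genes were called higher and 2 lower in kernel, against either organ.

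PvKer.10.g253740 had a median of 135 CPM in kernel (58.8 to 280.2, 15 libraries), against 90.8 CPM in shell (53 to 146) and 74.9 CPM in hull (47.5 to 160.1). Its log2 fold change was 1.31 ± 0.10 over hull (SE, edgeR adjusted p = 3.64e-21) and 1.37 ± 0.10 over shell (SE, edgeR adjusted p = 1.08e-22) with TMM, and 0.54 and 0.47, with no call, under library totals. PvKer.10.g256790 averaged 150.4 ± 32.9 CPM in kernel and 118 ± 36.3 CPM in shell, with a log2 fold change of 1.27 ± 0.15 (SE, edgeR adjusted p = 1.23e-12), and 0.36 under library totals. PvKer.07.g175370 averaged 535 ± 62.1 CPM in kernel and 450.0 ± 74.9 CPM in shell, with a log2 fold change of 1.17 ± 0.06 (SE, edgeR adjusted p = 6.15e-32), and 0.27 under library totals. The CPM ranges of all 3 genes overlapped between organs, and without replicate 1 of kernel 1881 the counts called higher were 2 over hull and 5 over shell. Without that library the counts on the adjusted p alone were again 9 higher and 2 lower in each comparison, and the median log2 difference of all genes was -0.17 over hull and -0.24 over shell.

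The third comparison of organs set shell over hull at the same points. The choice held the maxima within 3-fold, and hull and shell maxima lay within 1.5-fold for 11 of the 14 genes. A low count of calls here is therefore partly set by the choice. None of the 14 was called in either direction for shell over hull with edgeR or DESeq2, where 7.67% of all genes tested were called higher and 5.10% lower. At an unadjusted p below 0.05, 3 were higher and 5 lower in shell, beside 4809 higher and 5093 lower of the 20662 genes tested. On the adjusted p alone, 3 of 14 were higher and 3 lower, which is near the 19.6% and 21.4% of all genes tested. The log2 fold changes ran from -0.74 for PvKer.08.g192380 to 0.43 for PvKer.05.g129890, with a median of -0.06 beside 0.02 over all genes tested.

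PvKer.08.g192380 and PvKer.11.g269800 passed the call in none of the 13 comparisons. PvKer.08.g192380 changed by 0.51 in kernel, 0.68 in shell and 0.16 in hull on the log2 scale at mid-season, and PvKer.11.g269800 by 0.93, 0.76 and 0.60 in the same order.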

How the data were processed

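RNA was sequenced from kernel, shell and hull of pistachio cultivar Kerman. Per the labels' protocols, libraries were made with the TruSeq RNA kit v.2 and read at both ends for 150 bp. The submitters' processing notes name Trimmomatic 0.39 and Bowtie2 2.3.4.1. Not given in the sources used here are genome build, annotation, counting tool and use of strand, so counts of near-identical or overlapping genes are uncertain. The deposited values are raw counts of reads for each gene, whole numbers that the authors did not scale.

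CPM were computed over PvKer identifiers, and identifiers named after contigs stayed out of totals and tests. Counts were tested in R 4.3.3 with edgeR 4.0.16 (TMM, filterByExpr by group, quasi-likelihood F-test, Benjamini-Hochberg over the 20662 genes tested) in 1 fit of 110 libraries in 37 groups, those of the choice and the 3 labelled kernel 2475. Calls needed an adjusted p below 0.05 with a log2 fold change of 1 or more in size, and differences of changes the adjusted p alone. SE is the size of the log2 fold change over the root of F. DESeq2 1.42.0 was an alternative. The fits were tested on simulated counts.

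The genes, the libraries left out and the comparisons were chosen with earlier results of these data known. Named genes were the 3 with the highest hull maximum and the 2 with the largest rise. For this, the rise of a gene was the smallest of its 3 ratios of maximum to first point. Up to 2 called genes in each direction of each comparison and genes at the limits were also named. The other genes of the set were named after their values were seen. Replicate numbers follow the order of deposit and pair nothing, and no label gives a batch.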

Additional observations from a re-analysis of the deposited data

Results flagged for a closer look

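Single libraries that stood far from the other 3 of their group were sought in groups of 4 by Dixon's test, which by chance marks about 1 group in 20. Of 120 tests, 12 passed, and they came from 3 libraries. Replicate 1 of kernel 1881 was low in PvKer.07.g175370 (429 CPM), PvKer.10.g253740 (105 CPM), PvKer.15.g359570 (6.43 CPM), PvKer.01.g013910 (26.6 CPM), PvKer.05.g129890 (6.09 CPM) and PvKer.12.g292880 (12.9 CPM). The other 3 libraries of that group had 562 to 587 CPM of PvKer.07.g175370 and 60.9 to 63.8 CPM of PvKer.15.g359570. Why this library differed was not tested.

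Replicate 1 of hull 1357, which the choice of genes left out, was high in PvKer.07.g175370 (524 CPM), PvKer.10.g253740 (79.4 CPM) and PvKer.15.g359570 (43.8 CPM) and low in PvKer.08.g192380 (43.5 CPM). Replicate 2 of kernel 2284, also left out, was low in PvKer.10.g256790 (178 CPM) and PvKer.12.g292880 (4.94 CPM), at 202455 counts on PvKer identifiers.

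The mid-season change differed between organs by edgeR's test of the difference for 4 genes. In kernel minus hull it was 1.63 on the log2 scale for PvKer.07.g165950, 0.82 for PvKer.12.g292880, 0.34 for PvKer.07.g175370 and -0.83 for PvKer.01.g013910. In shell minus hull it was 0.84 for PvKer.07.g165950 and 0.46 for PvKer.07.g175370.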

How the results depend on the processing

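No called log2 fold change of the 14 genes reversed under any alternative run. Of 319 values for called genes under the alternatives, 281 kept their call and 38 lost it. On the adjusted p alone, the genes called higher and lower at mid-season were 12 and 1 in shell, 7 and 1 in hull, and 9 higher in kernel. At 2007 and 2139 they were 8 and 1 in kernel and 6 higher in hull. Early they were 8 and 1 in shell and 5 and 2 in hull. Between organs they were 9 and 2 for kernel over hull, 9 and 2 for kernel over shell, and 3 and 3 for shell over hull. With relative log expression size factors, and with DESeq2, 0 genes were called higher in hull at mid-season and 2 in kernel over hull. With every library under its label, 0 were called higher in hull at mid-season, 0 in shell minus hull, 1 in kernel at 2007 and 2139, 2 early in hull and 2 in kernel over hull. With no filter on low counts, 0 were called higher in shell minus hull, 0 in hull at 2007 and 2139, and 1 lower in kernel over shell. Under library totals alone, an alternative chosen after seeing the data, 2 were called higher in hull at mid-season, 1 higher and 2 lower in kernel minus hull, 0 higher in shell minus hull, and 0 higher and 2 lower in kernel over hull and in kernel over shell. Without replicate 1 of kernel 1881, also chosen after seeing the data, 2 were called higher in kernel over hull and 5 in kernel over shell. The causes of these shifts were not tested. Leaving out replicate 1, 2, 3 or 4 of every group in turn gave 1 to 2 called higher in hull at mid-season, 1 to 3 higher and 0 to 2 lower in kernel minus hull, 0 to 1 in shell minus hull, 0 to 3 higher in hull at 2007 and 2139, 0 to 1 in each direction early in hull, 1 to 3 in kernel over hull and 0 to 1 lower in kernel over shell.

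The set itself depended on the processing. The conditions were met by 16 genes with TMM-scaled CPM, of which 7 were among the 14, and by 11 with every library under its label, of which 6 were. PvKer.07.g175370, the most abundant of the 14, was lost in both settings and also without replicate 1 of every group. A rise of at least 4 times left 2 genes, both among the 14. Leaving out a replicate of every group gave 13 to 18 genes, with 8 to 12 of the 14 among them. With 2 shallow late kernel libraries kept, added after seeing the data, 19 genes met the conditions, 11 of them among the 14. No paired analysis was possible because the labels give no replicate numbers that the groups share. Depth limits the libraries labelled kernel 2475, where 1 count is worth more than 1 CPM, and replicate 2 of kernel 2284, which was shallower still.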
